A study of Arabidopsis thaliana with 4 samples.

Results

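The 6 SKP1-like genes described here are SKP1 (AT1G75950), ASK2 (AT5G42190), ASK3 (AT2G25700), ASK4 (AT1G20140), SK11 (AT4G34210) and SK12 (AT4G34470), which are 6 of the 32833 gene rows of the count tables. They were followed across 4 single-cell RNA libraries of Arabidopsis thaliana root tips, harvested 4 to 5 days after germination. The genes were chosen by their UMI counts, which differed between these same libraries, so differences between lines are given as descriptions, without a test. All 4 lines are transgenic and given as diploid. The line pWER:GFP carries GFP behind the promoter of WER, an epidermal MYB gene, and pSCR:GFP carries it behind that of SCR, a GRAS gene of the endodermis and stem cell niche. The line pCORTEX:GFP has a cortex promoter, and PET111 is an enhancer trap whose YFP answers to regulatory sequence near its insertion. Each line gave 1 library, labelled as a batch of its own, and effects of line and of batch therefore cannot be told apart.

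SKP1 proteins are the adaptors of SCF ubiquitin ligases. An SKP1 protein joins a cullin to an F-box protein, and the F-box protein picks the target that is marked for degradation. Auxin, jasmonate, ethylene and gibberellin responses of plants run through such F-box proteins, among them TIR1, COI1, EBF1 and SLY1. Arabidopsis has a large family of SKP1-like genes, in which SKP1 (also called ASK1) and ASK2 are the best studied and act redundantly in development.

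Among the 6 genes are 2 pairs of close copies, and their sequences are shown because reads from such copies can be hard to assign. In RefSeq (TAIR10.1) the coding sequences of SK11 and SK12 are each 459 bases long and identical at 456 of them, or 99.3%. The 3 substitutions from SK11 to SK12, counted from the first base of the start codon, are C184T, C231G and C316T. The stretch from coding base 171 to 330 holds all 3, shown in capitals.

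SK11 (chromosome 4, plus strand): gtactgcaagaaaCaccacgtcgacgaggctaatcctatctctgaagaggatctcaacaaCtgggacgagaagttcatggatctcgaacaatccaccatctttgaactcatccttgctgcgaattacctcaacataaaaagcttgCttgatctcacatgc

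SK12 (chromosome 4, minus strand): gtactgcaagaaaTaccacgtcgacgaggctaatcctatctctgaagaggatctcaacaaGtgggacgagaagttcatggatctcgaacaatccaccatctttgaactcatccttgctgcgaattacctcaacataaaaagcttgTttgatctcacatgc

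From there to the stop codon, where 3′ libraries gather reads, the copies do not differ. Their last 120 coding bases are the same run in both genes, and so hold no capitals.

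SK11 and SK12, coding bases 340 to 459: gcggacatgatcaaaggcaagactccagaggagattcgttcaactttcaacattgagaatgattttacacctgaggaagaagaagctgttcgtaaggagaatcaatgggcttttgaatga

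After the stop codon the RefSeq model of SK11 runs on for 67 bases and that of SK12 for 14. The longest run that both mRNAs share, 183 bases, lies before the first substitution, C184T. From the last substitution, C316T, the shared coding stretch to the end is 143 bases long. How the authors' counting treated reads that fit both copies is not given in the sources used here, so the split of counts between SK11 and SK12 is uncertain, and a count of SK12 in particular may hold or lack reads of the shared stretch.

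ASK3 and ASK4 are the other pair. Their coding sequences, 492 bases each, are identical at 459 positions (93.3%), and the longest shared run is 60 bases. Their last 120 coding bases differ at 5 sites, shown in capitals.

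ASK3 (chromosome 2, minus strand): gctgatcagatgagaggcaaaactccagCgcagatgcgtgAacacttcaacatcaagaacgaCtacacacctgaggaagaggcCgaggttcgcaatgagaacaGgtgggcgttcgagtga

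ASK4 (chromosome 1, plus strand): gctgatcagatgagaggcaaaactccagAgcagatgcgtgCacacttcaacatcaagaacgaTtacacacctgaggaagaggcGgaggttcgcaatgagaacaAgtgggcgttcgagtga

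Outside these pairs the coding sequences are less alike. SKP1 is 72.9% identical to ASK2 and 74.3% to SK11, and the lowest value, 61.0%, is that of ASK2 against SK11. No run shared between the members of different pairs is longer than 26 bases.

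Levels are given as CPM, the UMIs (tagged molecules) of a gene per 1000000 UMIs, summed over barcodes with at least 2000 UMIs and at most 10% organelle UMIs, with exact Poisson 95% intervals that cover counting error only. A 3′ library takes up a transcript once whatever its length, so the values were not divided by length. The filter kept 6360 barcodes for pWER:GFP, 7552 for pCORTEX:GFP, 3516 for PET111 and 6830 for pSCR:GFP. Median depths were between 9532 and 15354.5 UMIs, and library totals between 151062589 and 298058639 UMIs. Of 41641 distinct barcodes, 182 were in more than 1 library. With 1 library per line there is no replicate check on any difference between lines.

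SKP1, the canonical adaptor, was the most abundant of the 6 in every library. Its level was 1299 CPM in pSCR:GFP, 1056 in pWER:GFP, 846 in pCORTEX:GFP and 713 in PET111. It was highest in pSCR:GFP and lowest in PET111, which were 1.82-fold apart (counting interval 1.81 to 1.84). Over the 19342 nuclear genes that reached 100 UMIs in some library, the median fold between the highest and the lowest library was 1.68, and SKP1 ranked 8240 from the widest. SKP1 supplied between 69.9% (pWER:GFP) and 80.0% (pCORTEX:GFP) of the UMIs of the 6 genes.

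ASK2, the redundant partner of SKP1, lay at 122 CPM in pSCR:GFP, 134 in pWER:GFP, 172 in pCORTEX:GFP and 157 in PET111. It was highest in pCORTEX:GFP and lowest in pSCR:GFP, the library in which SKP1 was highest. The 1.40-fold span (interval 1.38 to 1.43) was narrower than that of the median gene and ranked 13974. ASK2 gave 16.3% and 17.2% of the UMIs of the 6 genes in pCORTEX:GFP and PET111, against 8.91% and 6.81% in pWER:GFP and pSCR:GFP.

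ASK4 separated the libraries further. It lay at 149 CPM in pSCR:GFP (22456 UMIs), 137 in pWER:GFP (27566 UMIs), 39.8 in pCORTEX:GFP (11859 UMIs) and 42.7 in PET111 (6481 UMIs). The libraries of pCORTEX:GFP and PET111 held similar low levels, and those of pWER:GFP and pSCR:GFP similar high levels. The fold of pSCR:GFP over pCORTEX:GFP was 3.74 (interval 3.65 to 3.82), and the span ranked 2707 of 19342. Against the mean of the other 3 libraries the log2 ratio was -1.46 in pCORTEX:GFP and -1.35 in PET111, which is short of 4-fold.

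ASK3, the close copy of ASK4, was near the floor of detection. It had 58 UMIs in pSCR:GFP, 82 in pWER:GFP, 0 in pCORTEX:GFP and 0 in PET111. These are 0.384 and 0.407 CPM in the libraries that held it. A count of 0 allows up to 0.0101 CPM in pCORTEX:GFP and 0.0197 in PET111 at 3 UMIs per library, and the exact 95% Poisson intervals reach 0.0124 and 0.0243 CPM. Taking the lower 95% counting bound of the 82 UMIs against 3 UMIs, its level in pWER:GFP was at least 32.1-fold higher than in pCORTEX:GFP and at least 16.4-fold higher than in PET111. All 82 UMIs of pWER:GFP lay in 25 barcodes, and the 58 of pSCR:GFP in 14. ASK3 did not reach 100 UMIs in any library and is not among the genes ranked.

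SK11 showed the widest span of the 6. It reached 178 CPM in pWER:GFP (35931 UMIs) and 223 in pSCR:GFP (33631 UMIs), above ASK2 in both. In pCORTEX:GFP it was at 0.104 CPM (31 UMIs) and in PET111 at 0.0526 (8 UMIs). SK11 was thus a main SKP1-like transcript in 2 of the libraries and close to absent from the other 2. The fold of pSCR:GFP over PET111 was 4229, with a counting interval of 2146 to 9795, and only 1 of the 19342 genes spanned more. The fold of pWER:GFP over pCORTEX:GFP was 1714 (interval 1207 to 2523), whereas pSCR:GFP exceeded pWER:GFP by 1.25-fold (interval 1.23 to 1.27). The 31 and 8 UMIs were spread over 28 and 8 barcodes with at most 2 UMIs each, and none of those barcodes was shared with another library.

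SK12, the close copy of SK11, was also nearly absent from pCORTEX:GFP and PET111, at lower levels throughout. It lay at 3.83 CPM in pSCR:GFP (579 UMIs), 4.05 in pWER:GFP (817 UMIs), 0.0403 in pCORTEX:GFP (12 UMIs) and 0.0263 in PET111 (4 UMIs). The values of pWER:GFP and pSCR:GFP were 1.06-fold apart, which counting error covers. The fold of pWER:GFP over PET111 was 154 (interval 59.9 to 566), and the span ranked 69 of 19342. Taken with SK11 as 1 quantity, which does not depend on the split between the copies, the sum was 226 CPM in pSCR:GFP, 182 in pWER:GFP, 0.144 in pCORTEX:GFP and 0.0790 in PET111.

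**Figure D1:**
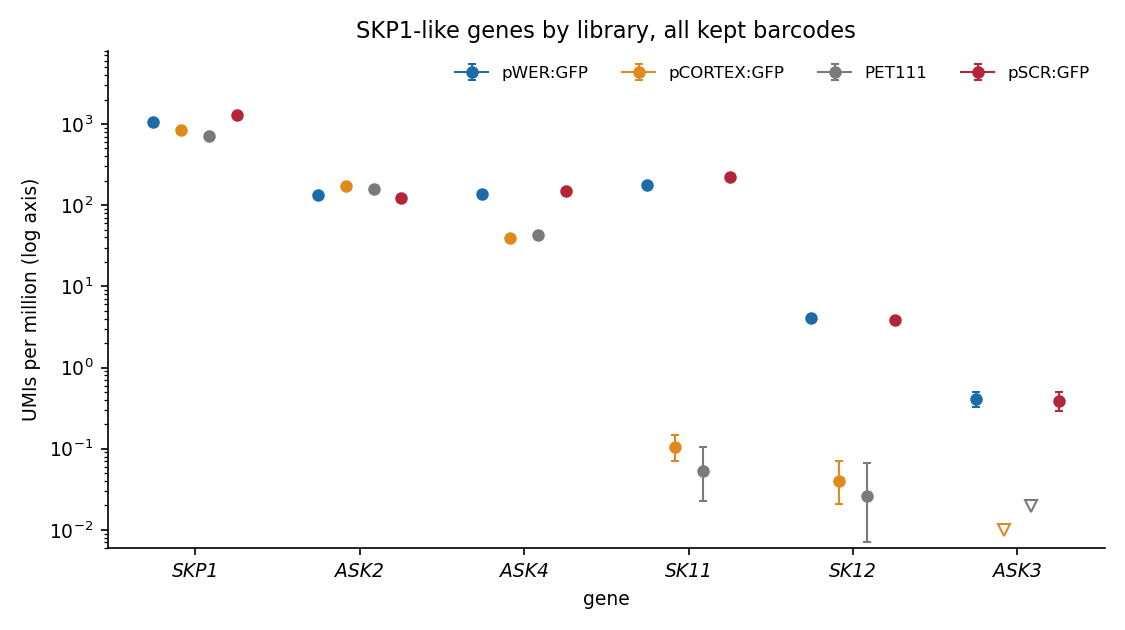
Level of each of the 6 genes in each library in CPM, on a log axis. Points are the 4 libraries and bars are exact Poisson 95% intervals, mostly smaller than the points; open triangles stand at the level of 3 UMIs where a library held 0. SK11 lies at 178 and 223 in pWER:GFP and pSCR:GFP and at 0.104 and 0.0526 in pCORTEX:GFP and PET111, while SKP1 and ASK2 stay within 1.82-fold and 1.40-fold.

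At least 4-fold below the mean of the other 3 libraries were 3 of the 6 genes in pCORTEX:GFP (SK11, SK12 and ASK3) and the same 3 genes in PET111. Of the 19342 genes that reached 100 UMIs, 4.49% were that low in pCORTEX:GFP and 4.74% in PET111. ASK3 is not among them, so the count to set beside these shares is 2 of 5 (SK11 and SK12). None of the 6 was 4-fold lower in pWER:GFP (1.17% of all genes) or pSCR:GFP (1.53%), and none was 4-fold higher in any library, beside 1.64% of all genes in pSCR:GFP, 0.222% in pWER:GFP, 0.222% in pCORTEX:GFP and 0.103% in PET111. The genes were chosen with this pattern in view, so the counts are not evidence about the family. Together the 6 genes gave 1797 CPM in pSCR:GFP, 1510 in pWER:GFP, 1057 in pCORTEX:GFP and 913 in PET111. Without SK11 the sums were 1575, 1332, 1057 and 913, so the order of the libraries was the same with and without it.

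The share of barcodes with a UMI was compared after every barcode was thinned to 2000 UMIs. SKP1 was found in 82.7% of barcodes in pSCR:GFP, 80.8% in pWER:GFP, 76.1% in pCORTEX:GFP and 68.1% in PET111. SK11 was found in 16.6% (exact Clopper-Pearson 95% interval 15.7 to 17.5) and 14.8% (13.9 to 15.6) in pWER:GFP and pSCR:GFP, and in 0.0265% and 0.0853% in pCORTEX:GFP and PET111. ASK2 and ASK4 had similar shares to SK11 in pWER:GFP (18.1% and 16.7%) and in pSCR:GFP (16.3% and 16.6%). Without thinning, so that deep barcodes weigh more, SK11 UMIs were held more unevenly than those of ASK4 or SKP1. In pWER:GFP the tenth of barcodes with the most SK11 UMIs held 89.2% of them, and in pSCR:GFP 92.6%, against 70.8% and 73.6% for ASK4 and 57.3% and 61.9% for SKP1. Single barcodes held up to 344 and 494 SK11 UMIs. Fewer cells with a transcript and less transcript per cell are mixed in the summed levels, and these shares separate them only in part.

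Cell classes were rebuilt from clusters of each library, made without the 6 genes, and named with known root markers. A class is called "like" its name for that reason. The 8 classes present in all 4 libraries were hair cell-like, non-hair cell-like, cortex-like, endodermis-like, xylem-like, phloem-like, root cap-like and dividing-like, with 72 to 1146 barcodes each per library. Between 25.4% and 57.0% of kept barcodes stayed unnamed. Among these were clusters that scored for a class but missed the naming thresholds, with 20.8% of kept barcodes in pWER:GFP, 20.0% in pCORTEX:GFP, 10.4% in pSCR:GFP and none in PET111. In PET111, 120 root cap-like barcodes were led by heat shock genes (MBF1C, HSP17.6A, HSP101). In pCORTEX:GFP a cluster of 403 barcodes led by AT4G11290 and RCI3 stayed unnamed. Clusters led by the same genes were named endodermis-like in pWER:GFP, PET111 and pSCR:GFP. The endodermis-like class of pCORTEX:GFP is a cluster of 280 barcodes with CASP2 among its top genes, so endodermis-like values may compare unlike cells. Median depth within a class differed between libraries, for instance 3830.5 and 3483.5 UMIs for cortex-like barcodes of pWER:GFP and pSCR:GFP against 22874 and 18204 in pCORTEX:GFP and PET111, and its part in the levels was not tested.

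SKP1 was highest in hair cell-like barcodes of all 4 libraries, at 2478 CPM in pSCR:GFP, 1839 in pWER:GFP, 1038 in pCORTEX:GFP and 825 in PET111. In dividing-like barcodes it was at 767, 703, 758 and 669 in the same order of libraries. The top class of pCORTEX:GFP was not set apart by counting error. Its intervals were 1024 to 1052 CPM in hair cell-like, 995 to 1054 in xylem-like and 1003 to 1043 in endodermis-like barcodes. The libraries were 3.00-fold apart in hair cell-like barcodes and 1.15-fold apart in dividing-like barcodes. In the same classes 23.0% and 7.41% of all genes that reached 100 UMIs there were 4-fold or more apart between the highest and lowest library, and the median gene spanned 2.09-fold and 1.51-fold. The step of SKP1 between classes was larger in pWER:GFP (2.62-fold from the highest to the lowest class) and pSCR:GFP (3.23-fold) than in pCORTEX:GFP (1.75-fold) and PET111 (1.33-fold).

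ASK2 ran the other way. In hair cell-like barcodes it was at 44.0 CPM in pSCR:GFP, 68.4 in pWER:GFP, 105 in pCORTEX:GFP and 86.5 in PET111, the lowest class in all libraries but pWER:GFP, where root cap-like barcodes held 61.2. Its level in cortex-like barcodes was nearly the same in the 4 libraries, with a mean of 150 CPM ± 6.66 (SD, n = 4). In dividing-like barcodes it was 159 ± 11.5 (SD, n = 4). Across the 32 class-by-library sums, the Pearson correlation of ASK2 with SKP1 on log2(CPM + 5) was -0.61, a description of sums that share libraries and depth.

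ASK4 differed between libraries by class. In hair cell-like barcodes it was at 185 CPM in pSCR:GFP, 228 in pWER:GFP, 11.7 in pCORTEX:GFP and 6.71 in PET111. In cortex-like barcodes the values were 108, 73.0, 4.59 and 3.62 in the same order. In dividing-like barcodes they were 96.2, 97.2, 75.5 and 75.5. The 4 libraries thus nearly met in dividing-like barcodes, with a span of 1.29-fold, and were 34.0-fold apart in hair cell-like and 29.8-fold apart in cortex-like barcodes. The spans of the other classes lay between, at 18.3-fold in non-hair cell-like, 13.2-fold in endodermis-like, 10.5-fold in root cap-like, 8.06-fold in xylem-like and 6.06-fold in phloem-like barcodes. Genes in general were also closest between libraries in dividing-like barcodes, where 7.41% were 4-fold apart. The share was 14.2% in cortex-like, 14.9% in non-hair cell-like, 21.4% in endodermis-like, 22.8% in phloem-like, 23.6% in root cap-like and 29.1% in xylem-like barcodes. Among the 8 classes, dividing-like barcodes were highest in ASK4 within pCORTEX:GFP and PET111, 16.5-fold and 20.8-fold above their cortex-like barcodes. In pWER:GFP and pSCR:GFP xylem-like barcodes were the highest of the 8 (264 and 196 CPM). A stele and pericycle-like class, named only in PET111, held more ASK4 than the dividing-like barcodes there, at 104 CPM (155 barcodes, 1619 UMIs).

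SK11 could be followed by class in pWER:GFP and pSCR:GFP. In phloem-like barcodes it reached 1027 CPM in pWER:GFP and 823 in pSCR:GFP, beside 1236 and 1286 of SKP1. In endodermis-like barcodes it was at 440 and 520. Among the 8 classes, both libraries had their highest SK11 level in phloem-like barcodes. Clusters of 144 and 103 barcodes in pWER:GFP and of 259 in pCORTEX:GFP also scored highest for phloem but stayed unnamed. The phloem-like values and contrasts leave these clusters out, so the class need not hold the same cells in each library. Dividing-like barcodes held 13.0 and 21.4 CPM and root cap-like barcodes 25.3 and 45.0, so the highest class was 79.0-fold and 38.4-fold above the lowest. Xylem-like barcodes held 548 CPM in pWER:GFP (157 barcodes, 2077 UMIs) and 63.4 in pSCR:GFP (72 barcodes, 40 UMIs, 24 of them in 1 barcode). The class is 1 cluster in each of these libraries, and the clusters need not hold the same kind of cell. A further pSCR:GFP cluster of 128 barcodes scored highest for xylem, with 9 markers up, but stayed unnamed under the naming thresholds. It held 683 CPM of SK11 (2628 UMIs), so the xylem values of the 2 libraries are not comparable. In thinned barcodes of pWER:GFP and pSCR:GFP, SK11 was found in 30.8% and 31.5% of phloem-like barcodes. Endodermis-like barcodes had similar shares, 27.9% and 30.2%. The shares of dividing-like barcodes were 3.91% and 8.80%, although these were deeper than phloem-like barcodes (medians of 29389 and 21507 UMIs against 12756 and 8757). None of the 8 classes of pCORTEX:GFP or PET111 held more than 3 UMIs of SK11; of the 31 UMIs in pCORTEX:GFP, 16 lay in unnamed barcodes and 9 in a replicating-like class that pWER:GFP lacked. Unnamed barcodes also held most of the SK11 UMIs of pWER:GFP (21637 of 35931) and pSCR:GFP (20657 of 33631), so the classes describe the smaller part of them.

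SK12 was also highest in phloem-like barcodes, at 57.1 CPM in pWER:GFP (102 UMIs) and 25.4 in pSCR:GFP (58 UMIs). Xylem-like barcodes followed with 17.9 (68 UMIs, 19 of them in 1 barcode) and 22.2 (14 UMIs in 4 barcodes), and dividing-like barcodes were lowest with 0.413 (8 UMIs) and 0.415 (3 UMIs). Xylem-like barcodes of pSCR:GFP held 22.2 CPM of SK12 beside 63.4 of SK11, and endodermis-like barcodes 5.80 beside 520. ASK3 had 17 of its 82 UMIs in xylem-like barcodes of pWER:GFP, 15 of them in 1 barcode. In pSCR:GFP 13 of its 58 lay in cortex-like barcodes, all in 1 barcode, and unnamed barcodes held most of the rest (50 and 35 UMIs).

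**Figure D2:**
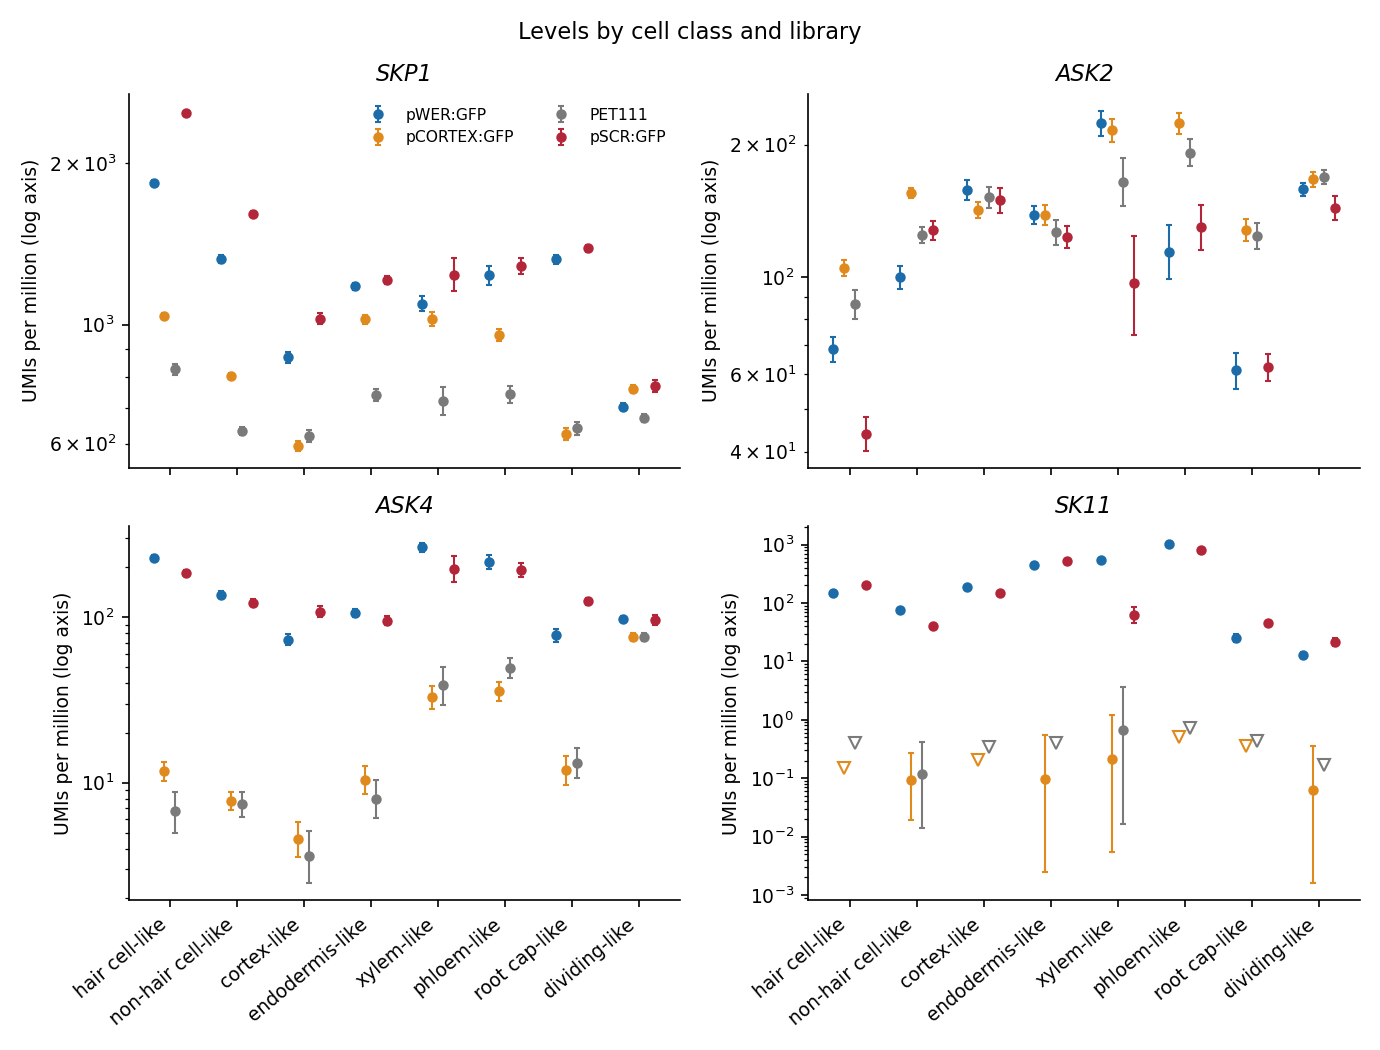
Levels of SKP1, ASK2, ASK4 and SK11 in CPM on log axes, by cell class and library. Bars are exact Poisson 95% intervals and open triangles mark 3 UMIs where a class held 0. ASK4 is between 75.5 and 97.2 in dividing-like barcodes of all libraries and spans 34.0-fold in hair cell-like barcodes, and SK11 is highest in phloem-like barcodes of pWER:GFP and pSCR:GFP.

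Each class was tested against the mean of the other 7 with edgeR's quasi-likelihood test on class sums, with library as a block and Benjamini-Hochberg adjustment over the 18826 genes tested. The libraries are the replicates of this test, and each is a different line. ASK3 had too few counts to be tested. Of the 40 contrasts of the other 5 genes, 14 had an adjusted p below 0.05, beside 52.2% of all gene-by-class contrasts. A share of 14 in 40 is below that background. With library left out of the model 3 of the 14 calls remained, those of SKP1 in hair cell-like and dividing-like barcodes and of SK12 in phloem-like barcodes.

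SKP1 was higher in hair cell-like barcodes by 0.97 on the log2 scale (SE 0.18, adjusted p 4.04e-05) and above the mean of the other classes in 4 of 4 libraries. It was lower in dividing-like barcodes by log2 -0.54 (SE 0.20, adjusted p 0.0196), also in 4 of 4. The first call was kept in all settings tried. The second was lost without pWER:GFP (-0.40, adjusted p 0.161) or without pSCR:GFP (-0.36, adjusted p 0.176), and in 5 of 7 further settings such as DESeq2 size factors (-0.29, adjusted p 0.194). Of all genes, 29.8% were called higher in hair cell-like and 36.8% lower in dividing-like barcodes.

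ASK2 was lower in hair cell-like barcodes (log2 -0.55, SE 0.15, adjusted p 0.00244) and in root cap-like barcodes (log2 -0.44, SE 0.15, adjusted p 0.0148), in 4 of 4 libraries each. The call in root cap-like barcodes ended without pSCR:GFP (log2 -0.39, adjusted p 0.0610). SKP1 and ASK2 were thus called in opposite directions in hair cell-like barcodes. Lower calls made up 35.0% of all genes in hair cell-like and 20.8% in root cap-like barcodes.

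ASK4 was called higher in dividing-like barcodes (log2 1.52, SE 0.37, adjusted p 0.000668) and lower in cortex-like barcodes (log2 -1.47, SE 0.44, adjusted p 0.00787). The first call did not describe all lines. The log2 ratio of dividing-like barcodes over the mean of the other classes was 2.20 in pCORTEX:GFP and 2.05 in PET111, and -0.69 in pWER:GFP and -0.60 in pSCR:GFP. In pCORTEX:GFP, 157 of the 327 dividing-like barcodes came from a cluster with a median of only 5186 UMIs, and its part in the value was not tested. The call ended without pCORTEX:GFP (1.09, adjusted p 0.0597) or without PET111 (0.84, adjusted p 0.0821). With library left out of the edgeR model, the dividing-like log2 fold of ASK4 was only 0.0461 (adjusted p 0.982). In cortex-like barcodes ASK4 was below the other classes in 4 of 4 libraries, but the call ended without pCORTEX:GFP (-1.28, adjusted p 0.0809) or without PET111 (-1.13, adjusted p 0.0596). Of all genes, 36.7% were called higher in dividing-like and 23.8% lower in cortex-like barcodes.

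For SK11 and SK12 the fitted values rest on pWER:GFP and pSCR:GFP, because the class sums of the other libraries were at or near 0. SK11 was higher in phloem-like barcodes (log2 2.60, SE 0.39, adjusted p 7.93e-06) and endodermis-like barcodes (log2 1.92, SE 0.42, adjusted p 0.000751). It was lower in dividing-like barcodes (log2 -3.52, SE 0.69, adjusted p 6.70e-05) and root cap-like barcodes (log2 -1.89, SE 0.60, adjusted p 0.0100). The call in root cap-like barcodes ended without pWER:GFP (log2 -1.45, adjusted p 0.159). In xylem-like barcodes SK11 had a log2 fold of 1.12 (adjusted p 0.0780), which became 2.03 without pSCR:GFP (adjusted p 0.00438) and -0.50 without pWER:GFP (adjusted p 0.727); the unnamed pSCR:GFP cluster is not in this fit.

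SK12 was higher in phloem-like barcodes (log2 3.17, SE 0.38, adjusted p 2.05e-07) and xylem-like barcodes (log2 2.10, SE 0.47, adjusted p 0.000735), and lower in dividing-like barcodes (log2 -3.48, SE 0.70, adjusted p 8.37e-05) and non-hair cell-like barcodes (log2 -1.65, SE 0.54, adjusted p 0.0130). The xylem-like call, too, leaves that cluster out, which held 14.6 CPM of SK12 (56 UMIs). The non-hair cell-like call ended without pSCR:GFP (log2 -1.15, adjusted p 0.183). SK11 and SK12 were both called higher in phloem-like and lower in dividing-like barcodes. Of all genes, 23.4% were called higher in phloem-like, 22.4% in endodermis-like and 19.5% in xylem-like barcodes, and 26.0% lower in non-hair cell-like barcodes.

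**Figure D3:**
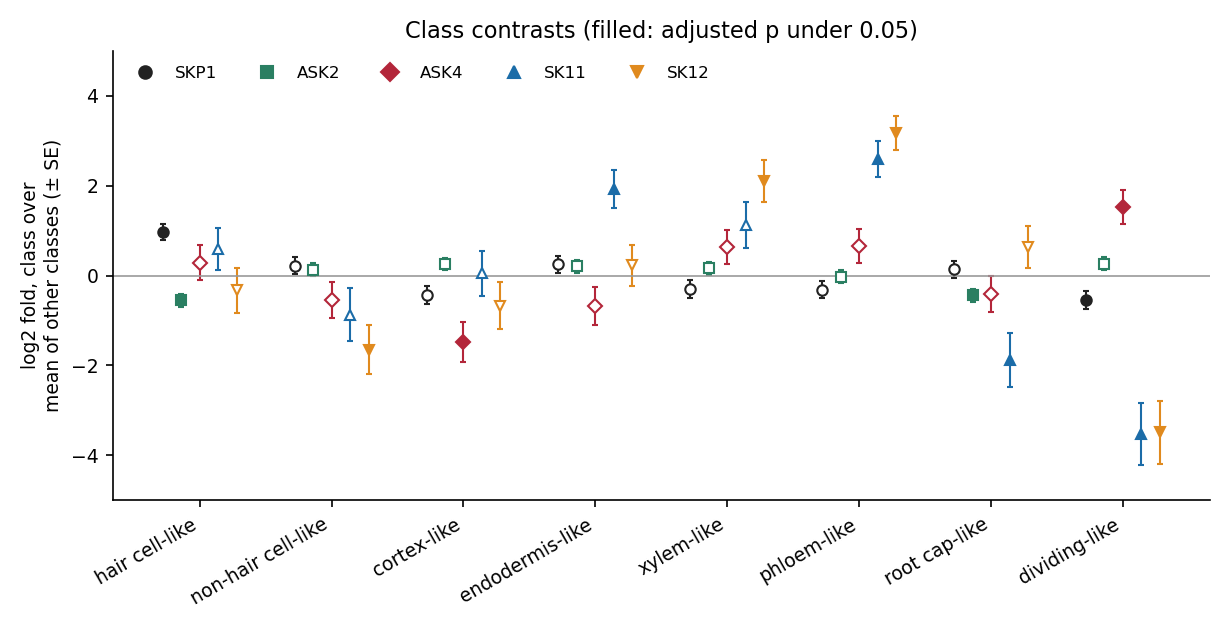
Log2 fold of each class over the mean of the other 7 classes for the 5 genes tested, with standard errors; filled symbols have an adjusted p below 0.05 in edgeR's quasi-likelihood test. SK11 and SK12 are highest in phloem-like barcodes (2.60 and 3.17) and lowest in dividing-like barcodes (-3.52 and -3.48), and SKP1 and ASK2 lie on opposite sides of 0 in hair cell-like barcodes.

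The rest of the ASK family was low. Of 15 other ASK genes, 4 reached 100 UMIs in a library. ASK5 had 276 UMIs in pSCR:GFP, 488 in pWER:GFP, 81 in pCORTEX:GFP and 34 in PET111, with log2 ratios of -2.46 and -2.75 in pCORTEX:GFP and PET111. ASK20 and ASK21 were lower in the same libraries by less than 4-fold, and ASK18 was nearly level at 3.24 to 4.76 CPM. The median log2 ratio of the 4 genes was -1.12 in pCORTEX:GFP and -0.67 in PET111, beside -0.07 and 0.07 over all genes. ASK13 and ASK10, under 100 UMIs and named after their values were seen, had 85 and 45 UMIs in pWER:GFP, 67 and 25 in pSCR:GFP and at most 1 in the other libraries. By class, ASK5 was called higher in xylem-like barcodes (log2 5.73, SE 0.45, adjusted p 7.51e-11), and ASK18 higher in dividing-like barcodes (log2 2.67, SE 0.31, adjusted p 2.15e-08).

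All 13 genes of the SCF core and its regulators reached 100 UMIs, and 1 of them passed 4-fold in a library, beside 7.68% of all genes. That gene, CUL2, a cullin close to CUL1, had 179 UMIs in pSCR:GFP, 257 in pWER:GFP, 12 in pCORTEX:GFP and 8 in PET111. Its log2 ratios were -4.38 in pCORTEX:GFP and -3.98 in PET111. CUL1, the scaffold of SCF ligases, lay between 42.6 and 79.1 CPM, and RBX1A, which recruits the ubiquitin-conjugating enzyme, between 167 and 207. The list's median log2 ratios were between -0.17 in pCORTEX:GFP and 0.11 in pWER:GFP.

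Of 23 F-box genes, 22 reached 100 UMIs. SKP2B and SKP2A, F-box proteins linked to cell cycle factors, were 4-fold lower in pCORTEX:GFP and PET111 and 4-fold higher in pSCR:GFP, a higher call shared by 1.64% of all genes. Thus 2 of 22 passed 4-fold in some library, beside 7.68% of all genes. SKP2B was at 58.8 CPM in pSCR:GFP, 28.1 in pWER:GFP, 3.75 in pCORTEX:GFP and 3.41 in PET111. The hormone receptors TIR1 and COI1 stayed within 4-fold of the mean of the other 3 libraries, as did the other 18 F-box genes measured. Single libraries could lie further apart than 4-fold. LKP2 was at 18.5 CPM in pSCR:GFP and 3.50 in pCORTEX:GFP, and CPR1 at 86.3 in pSCR:GFP and 19.6 in PET111. The 3 other cullins, which build ligases without an SKP1 adaptor, had log2 ratios between -0.29 and 0.29.

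In dividing-like barcodes 8 of the 12 SCF core genes tested were called higher and 2 lower (CUL1 and RCE1), with a median log2 fold of 0.49 beside -0.12 over all genes. Of all genes, 36.7% were called higher in this class and 36.8% lower. SGT1A, a co-chaperone of SCF ligases, was higher by 2.44 (SE 0.21, adjusted p 1.73e-10), and CSN5A, which takes the modifier RUB off cullins, by 1.44 (SE 0.13, adjusted p 2.07e-10). Of the 21 F-box genes tested, 1 was called higher in the same class (FBL17, log2 0.84, adjusted p 0.000699) and 9 lower, to be read beside the same shares. SKP2B was called higher in root cap-like barcodes (log2 5.40, SE 0.39, adjusted p 9.91e-12, beside 32.3% of all genes called higher), a class in which SK11 and ASK2 were lower. In hair cell-like barcodes, where SKP1 was higher, 5 of the 12 SCF core genes were called higher, among them RBX1A (log2 0.86, SE 0.12, adjusted p 1.36e-06), and 4 lower, beside 29.8% and 35.0% of all genes. AFB1, an auxin receptor, was lower there (log2 -3.04, SE 0.27, adjusted p 5.64e-10).

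**Figure D4:**
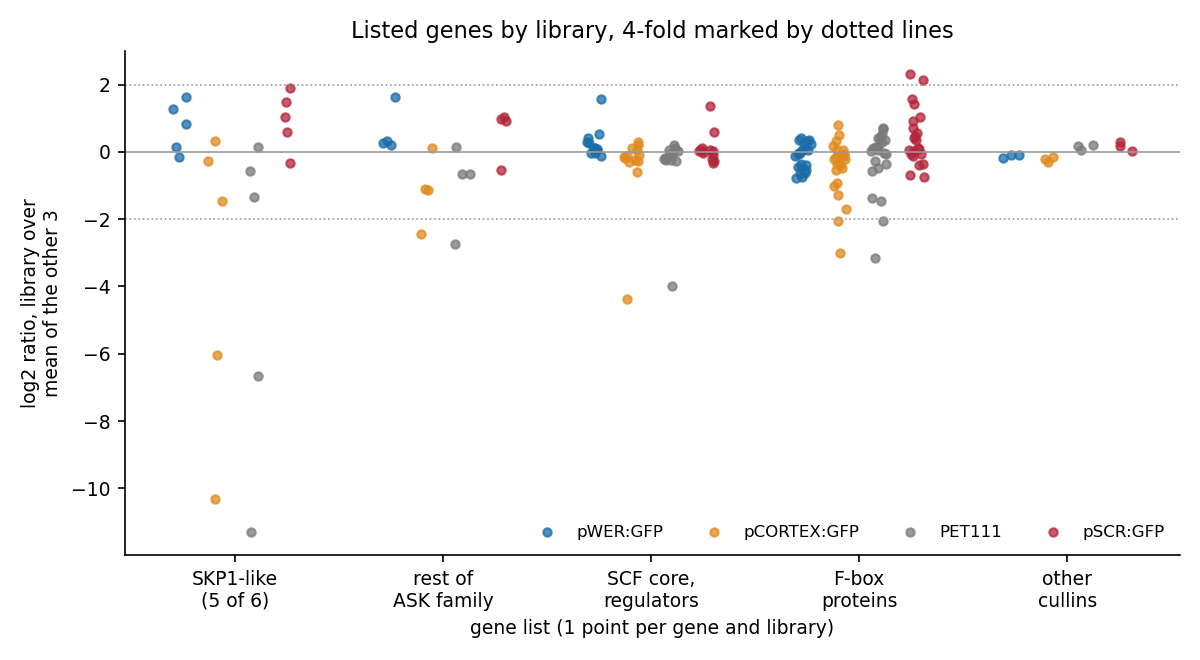
Log2 ratio of a library to the mean of the remaining 3, for listed genes that reached 100 UMIs (5 of the 6 among them), 1 point per gene and library, with dotted lines at 4-fold. SK11 and SK12 reach -10.33 and -6.03 in pCORTEX:GFP and -11.31 and -6.65 in PET111, CUL2 reaches -4.38 and -3.98, and most F-box, SCF core and other cullin genes lie near 0.

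Genes beside the 6 in the TAIR10.1 annotation were compared to see whether the pattern ran along the chromosome. Of 36 neighbours, the 3 nearest on each side of each gene, 22 reached 100 UMIs in a library and 3 passed 4-fold in a library, beside 7.68% of all genes. The direct neighbours of SK11, EDA9 and AT4G34215, had log2 ratios between -0.19 and 0.33, and those of SK12, AGB1 and AT4G34480, between -0.77 and 0.55. AT4G34220, 2 genes from SK11, went the other way, with 142 UMIs in pSCR:GFP, 129 in pWER:GFP, 1233 in pCORTEX:GFP and 704 in PET111. Between SK11 and SK12 lie 38 genes, of which 27 reached 100 UMIs and 5 were 4-fold lower in both pCORTEX:GFP and PET111, against 3.72% of all genes. SKP1 itself has 2 neighbours that passed 4-fold. AT1G75945, next to it on the opposite strand, had 2323 UMIs in pSCR:GFP, 5 in pWER:GFP, 908 in pCORTEX:GFP and 7950 in PET111, and AT1G75960, on its other side, had 698, 416, 108 and 60.

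The genes most like each of the 6 were taken by Pearson correlation of log2(CPM + 5) over the 32 class-by-library sums, which share libraries and depth. Nearest to SK11 was AT4G33930 (r 0.98), at 109 CPM in pSCR:GFP, 104 in pWER:GFP, 0.127 in pCORTEX:GFP and 0.0658 in PET111. AT1G72800 (r 0.96) and AT5G61890 (r 0.95) followed, also below 1 CPM in pCORTEX:GFP and PET111. Nearest to ASK4 were AT5G13970 (r 0.91), AT3G25910 (r 0.91) and RAE1 (r 0.90), and nearest to ASK2 were TBL13 (r 0.93), GATA15 (r 0.92) and AT1G34010 (r 0.90). SKP1 was most like AT5G09390, BETA-OHASE 2 and AT3G52220, all with r 0.88. SK12 was most like AT3G43250 (r 0.95) and ASK3 most like NST1 (r 0.93), a NAC gene of secondary wall formation. The highest ASK3 sum, in xylem-like barcodes of pWER:GFP, is 17 UMIs with 15 of them in 1 barcode. The r of ASK3 thus rests on very few barcodes. Among the 6 themselves, SK11 had r 0.80 with SK12 and r 0.80 with ASK4.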

How the data were processed

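Counts are UMIs per gene and barcode from 10x 3′ libraries; the authors made the deposited count tables with Cell Ranger 7.1.0 and Seurat, per the submitters' processing notes. The genome build and the handling of reads that fit more than 1 gene are not given in the sources used here. Barcodes with at least 2000 UMIs and at most 10% organelle UMIs were kept. Doublets were not called, and leaving out the deepest 5% of barcodes was an alternative.

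Each library was clustered on its own (2000 variable genes, 30 components, Leiden resolution 1, leidenalg 0.10.2) without the 6 genes, the listed ASK and SCF genes, reporters or their promoter genes. Clusters were named from 105 markers, with naming thresholds set after the clusters were seen. Class sums of at least 50 barcodes were tested in edgeR 4.0.16 (R 4.3.3), with TMM scaling and filterByExpr; DESeq2 1.42.0 was an alternative. The 4 libraries are the replicates of that test, with library as a block. Its p-values therefore measure how class differences vary between libraries, and leave out the spread of levels between lines and batches. Between libraries a fold of 4 served as threshold, and a library at 0 took the value of 3 UMIs. The genes and lists were chosen with earlier results of these data known. Named genes are the 6, listed genes past 4-fold or called, 3 neighbours on each side and the 3 most alike. Of the gene rows, 32548 matched RefSeq TAIR10.1, whose names and sequences were used. The class test was tested on simulated counts.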

Additional observations from a re-analysis of the deposited data

Results flagged for a closer look

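Within a class, or over all kept barcodes, the 4 libraries were compared for a value far from the other 3. This gave 50 sets of 4 libraries, of which chance alone sets apart about 5%. The SK11 level in xylem-like barcodes stood out in pWER:GFP, at 548 CPM. The class left out an unnamed pSCR:GFP cluster that scored highest for xylem and held 683 CPM. ASK3 stood out in pWER:GFP in xylem-like barcodes (4.49 CPM), endodermis-like barcodes (0.485) and dividing-like barcodes (0.206), where the other libraries held 0 UMIs. Beside 3 zeros any UMI stands out, so these values carry no weight. The endodermis-like value is 6 UMIs in 1 barcode, the dividing-like value 4 UMIs in 1 barcode, and 15 of the 17 xylem-like UMIs lie in 1 barcode.

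Barcodes left out by the filters also held UMIs of the 6 genes, 9345 in pSCR:GFP, 6851 in pWER:GFP, 5331 in pCORTEX:GFP and 6676 in PET111. For SK11 these were 753 UMIs in pSCR:GFP, 637 in pWER:GFP, 0 in pCORTEX:GFP and 1 in PET111. Nearly all SK11 UMIs of the left-out barcodes, too, thus came from pSCR:GFP and pWER:GFP.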

How the results depend on the processing

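The counts of genes 4-fold below the other libraries (0 in pWER:GFP and pSCR:GFP, 3 in pCORTEX:GFP and PET111) fell to 1 in pCORTEX:GFP and to 1 in PET111 with a pseudocount of 1 CPM and within dividing-like barcodes. No gene was 4-fold higher in pWER:GFP or pSCR:GFP at first. In pWER:GFP this became 2 with every barcode weighted the same and within non-hair cell-like barcodes, and 1 within xylem-like, phloem-like and root cap-like barcodes. In pSCR:GFP it became 1 within hair cell-like, root cap-like and dividing-like barcodes. Leaving a library out of the mean gave counts of 0 to 3 higher genes in each of those 2 libraries, the 3 arising when the other of them was left out. Ratios within a class were limited, after the data were seen, to genes that reached 20 UMIs there in some library, which ASK3 never did. SK12 had at most 8 UMIs in dividing-like barcodes and was left out there too. The fall to 1 in that class comes from this limit. Without thinning, SK11 was found in 39.0% of barcodes in pWER:GFP, 0.371% in pCORTEX:GFP and 33.3% in pSCR:GFP.

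The 14 called contrasts became 3 with no replicate block, where the library was left out of the model: SKP1 in hair cell-like and dividing-like barcodes and SK12 in phloem-like barcodes. Other settings gave 13 to 17 calls, and leaving out a library gave 12 each time. ASK2 in dividing-like barcodes, not called at first, was called higher with DESeq2 size factors (log2 0.50, adjusted p 0.00192) and in 4 further settings. Without the block ASK2 in hair cell-like barcodes had an adjusted p of 0.0538. No called contrast changed its direction. No paired analysis was possible because each line has 1 library and shares no replicate with another. Depth limits ASK3, whose totals were 82, 58, 0 and 0 UMIs.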
